A study of Sus scrofa with 9 samples.

Results

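Aminoacyl-tRNA synthetases join each amino acid to its own transfer RNA, the step that lets the ribosome read the genetic code as protein. Animal cells keep separate sets for the cytosol and for the mitochondrial matrix. The cytosolic set serves all translation of nuclear messages, and the mitochondrial set, encoded in the nucleus and imported, serves the few proteins made from mitochondrial DNA, which in heart muscle are core parts of the respiratory chain. GARS and KARS each encode the cytosolic and the mitochondrial form of their enzyme, and EPRS joins the glutamate and proline enzymes in a single protein. The family was defined by name, as the rows whose gene symbol has the form of a synthetase name, and 32 of the 22629 rows of the table matched. They comprised 18 cytosolic enzymes and 14 mitochondrial enzymes, whose symbols end in 2. All 32 passed the filter on low values (at least 1 TPM in at least 3 libraries), and they are given by the symbols of the table.

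The tissue was left ventricular myocardium of wild type pigs that received no treatment, collected at birth (day 0) and at the ages of 7 and 15 days. Each age has 3 of the 9 libraries. Values are TPM (a transcript abundance normalised for length and scaled to the same total in every library), in the order of replicates 4, 5 and 6 at day 0, 2, 5 and 6 at day 7, and 1, 2 and 6 at day 15. Read depth cannot be had from TPM and is unknown here. Nothing in the labels ties each library to an animal of its own, and p-values therefore cover the spread between samples, which may be technical.

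A few facts of the whole table bear on every value below. The 9 libraries listed 11290 to 12164 genes at 1 TPM or more. The most abundant row, the unnamed ENSSSCG00000032277, held 24.0% to 34.5% of all TPM at day 0, 32.6% to 37.2% at day 7 and 30.6% to 46.0% at day 15, where the highest share was in replicate 1. The median log2 fold change of all 12268 genes tested was -0.04 for day 7 against day 0 and -0.19 for day 15 against day 0. After median-of-ratios scaling, which centres the libraries on their typical gene, these medians were 0.00 and 0.01. Changes of the enzymes are therefore also given relative to the median of all genes. The 8 heart muscle markers in the table (among them MYH7, MYL2 and TNNT2) were abundant and summed to 63246 to 72865 TPM at day 0, 53146 to 62827 TPM at day 7 and 48556 to 61404 TPM at day 15. Of these 8 only ACTC1, a cardiac actin, passed the test, at 2952 to 5540 TPM at day 15, against 11841 to 15356 TPM at day 0. The median log2 fold change of the 8 was -0.07 at day 7 and -0.03 at day 15 against day 0. Tissue RNA does not tell fewer cells of a type from less RNA per cell. Fibroblast markers (9 genes) summed to 924 to 1419 TPM at day 0, 1620 to 2226 TPM at day 7 and 1198 to 1483 TPM at day 15, and endothelial markers (9 genes) to 307 to 365, 410 to 495 and 303 to 335 TPM. Of the fibroblast markers 2 rose at day 7 and 1 rose at day 15, both against day 0. Of the endothelial markers 2 rose and 1 fell at day 7, and 1 fell at day 15, against day 0. Pericyte and smooth muscle markers (8 genes) summed to 342 to 509 TPM at day 0, 283 to 356 TPM at day 7 and 214 to 249 TPM at day 15. Of these 8, 1 fell and 1 rose at day 7, and 4 fell and 1 rose at day 15, against day 0. Of all genes 8.88% fell and 7.67% rose at day 7, and 18.4% fell and 5.53% rose at day 15. Atrial markers (5 genes) summed to 573 to 2969 TPM at day 0, 154 to 2335 TPM at day 7 and 181 to 658 TPM at day 15. Macrophage markers (9 genes) summed to 67.5 to 80.3, 74.4 to 129 and 65.1 to 279 TPM. The part of these cell types in the results on the synthetases was not tested.

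Most cytosolic synthetases fell at day 7 against birth, and most mitochondrial synthetases did not pass the test. For day 7 against day 0, 12 of the 18 cytosolic enzymes fell and 0 rose (limma, adjusted p under 0.05), whereas 8.88% of all genes tested fell and 7.67% rose. At an unadjusted p under 0.05, 14 cytosolic enzymes were lower and 1, QARS, was higher. Of the 14 mitochondrial enzymes 2 fell, a share of 14.3%, and 0 rose, with 3 lower and 0 higher at an unadjusted p under 0.05. At that unadjusted threshold 2267 of the 12268 genes tested were lower and 1884 were higher. The median log2 fold change was -0.75 over the cytosolic enzymes and -0.14 over the mitochondrial enzymes, differences of -0.71 and -0.10 from the median of all genes. With median-of-ratios scaling these differences were -0.70 and -0.10. The mitochondrial median itself was 0.00 when TPM was rescaled without mtDNA-encoded genes and the 20 most abundant genes, where the median of all genes was 0.12. All 3 day 7 libraries lay below all 3 day 0 libraries for 15 of 18 cytosolic and 3 of 14 mitochondrial enzymes, as they did for 23.8% of all genes.

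**Figure D1:**
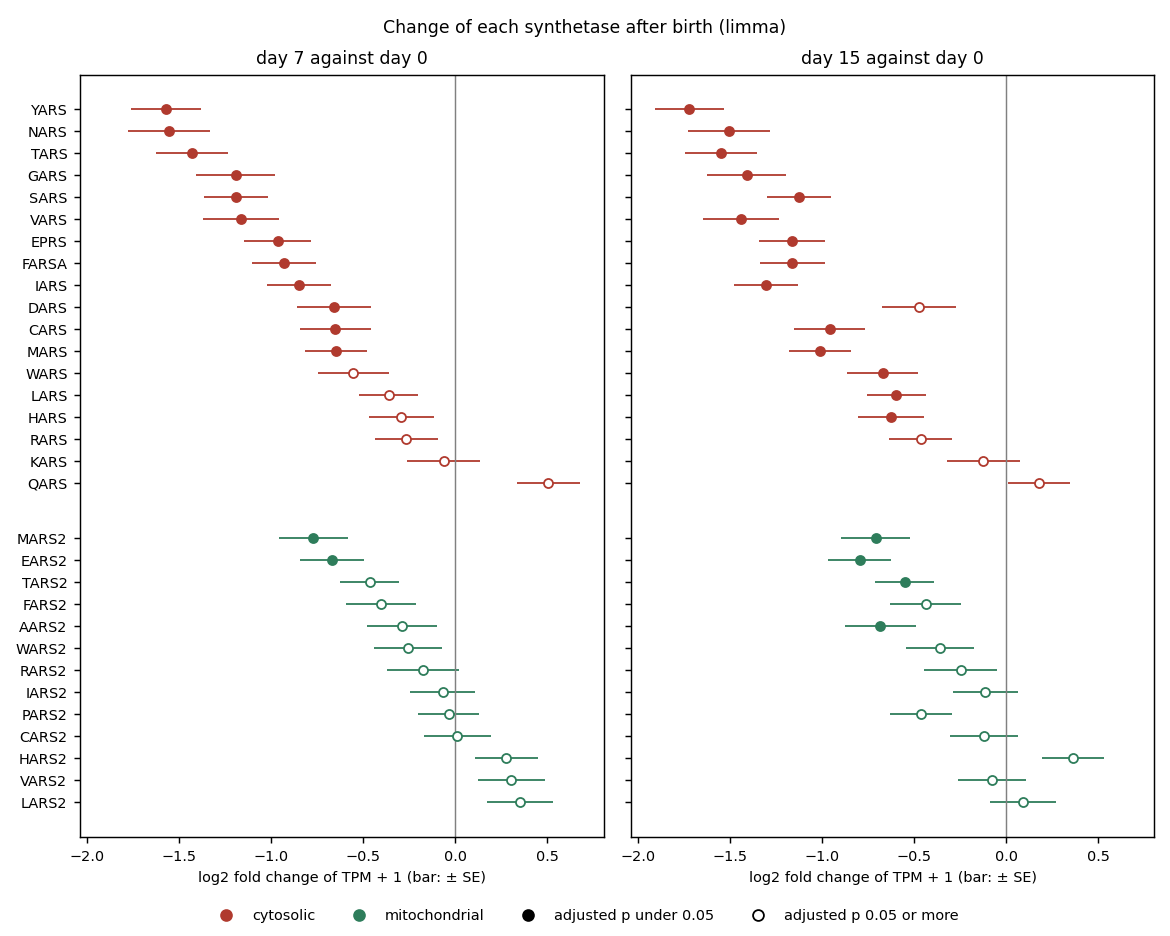
Log2 fold change of TPM + 1 (horizontal axis, bars ± SE) of 31 synthetases for day 7 against day 0 (left) and day 15 against day 0 (right), with cytosolic enzymes above and mitochondrial enzymes beneath. Filled points have a limma adjusted p under 0.05. The 12 filled cytosolic points on the left run from YARS at -1.57 to MARS at -0.65, and QARS, at 0.51, is the cytosolic enzyme farthest to the right.

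The largest change at day 7 was that of YARS, which charges tyrosine transfer RNA. YARS had 21.9, 17.9 and 25.5 TPM at day 0, 7.32, 6.40 and 6.11 at day 7, and 4.88, 7.00 and 5.83 at day 15. The newborn libraries stood above all 6 older libraries, and the older ages overlapped. Its log2 fold change for day 7 against day 0 was -1.57 ± 0.19 (SE, n = 3 libraries per age here and below; limma adjusted p = 0.00138).

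NARS, the asparagine enzyme, had 72.3, 63.8 and 106 TPM at day 0, 25.9, 29.8 and 23.2 at day 7, and 21.6, 33.3 and 27.7 at day 15. It fell by 1.56 on the log2(TPM + 1) scale at day 7 (SE 0.22, limma adjusted p = 0.00297). TARS, the threonine enzyme, had 19.3, 18.8 and 23.6 TPM at day 0, 7.07, 7.44 and 6.37 at day 7, and 4.66, 7.86 and 6.87 at day 15. For NARS and TARS, as for YARS, no older library reached a newborn one. TARS changed by -1.43 ± 0.20 (limma adjusted p = 0.00291).

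SARS, which charges serine transfer RNA and also supplies the serine that is turned into selenocysteine on its own transfer RNA, was the second most abundant member. It had 83.7, 80.2 and 94.3 TPM at day 0, 38.0, 38.2 and 34.9 at day 7, and 38.6, 47.1 and 32.1 at day 15, again with the newborn libraries clear of the rest. Its change at day 7 was -1.19 ± 0.17 (limma adjusted p = 0.00319).

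GARS, the glycine enzyme of both compartments, had 28.1, 20.9 and 32.7 TPM at day 0, 12.9, 11.8 and 9.08 at day 7, and 8.79, 11.9 and 8.10 at day 15. It changed by -1.19 ± 0.22 at day 7 (limma adjusted p = 0.00641), and VARS, the valine enzyme, changed by -1.16 ± 0.21 (limma adjusted p = 0.00620). VARS had 26.0, 25.7 and 33.7 TPM at day 0, 15.8, 10.1 and 10.9 at day 7, and 9.76, 11.5 and 8.27 at day 15. For both enzymes the newborn libraries did not overlap the older ones. Leaving out GARS and KARS, which also serve mitochondria, 11 of 16 cytosolic enzymes fell at day 7, where 8.88% of all genes did.

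KARS, the lysine enzyme of both compartments, did not pass the test in any comparison. It was the most abundant member, with 196, 149 and 214 TPM at day 0, 163, 205 and 165 at day 7, and 142, 207 and 164 at day 15. The 3 ages overlapped throughout. Its log2 fold change was -0.06 ± 0.20 at day 7 and -0.12 ± 0.20 at day 15 against day 0 (limma adjusted p = 0.849 and 0.673), and its sign turned under other scalings. KARS made up 22.4% to 26.0% of the summed cytosolic TPM at day 0, 32.5% to 37.7% at day 7 and 35.7% to 37.8% at day 15, with no overlap between day 0 and the later ages.

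QARS, the glutamine enzyme, was the cytosolic member with a positive change. It had 33.2, 31.6 and 38.0 TPM at day 0, 50.6, 49.0 and 47.3 at day 7, and 32.3, 45.4 and 39.9 at day 15. All day 7 libraries were above all others. Its log2 fold change of 0.51 ± 0.17 for day 7 against day 0 did not pass on the deposited TPM (limma adjusted p = 0.0608). It passed after median-of-ratios scaling (0.56, limma adjusted p = 0.00554), and its adjusted p ranged from 0.00404 to 0.220 over 17 alternative settings. QARS was singled out after its values were seen.

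**Figure D2:**
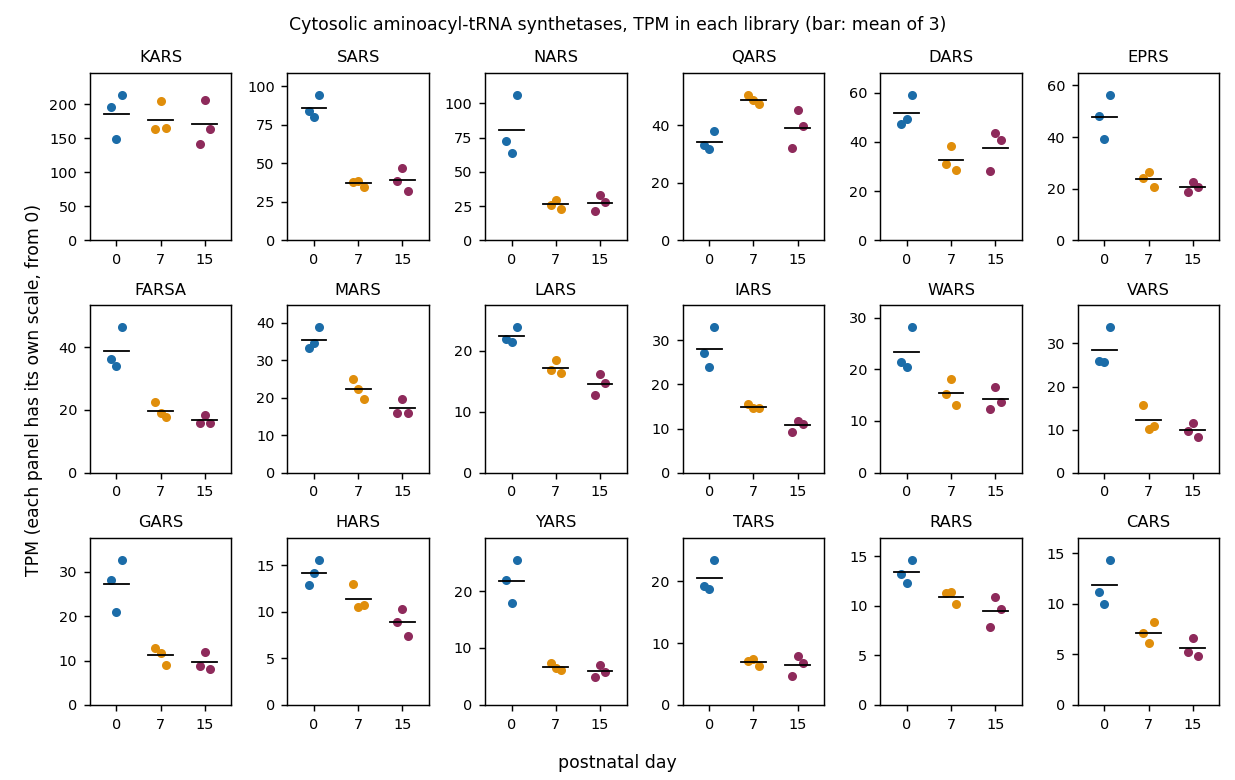
TPM (vertical axis, each panel with its own scale from 0) of the 18 cytosolic synthetases on postnatal days 0, 7 and 15 (horizontal axis), 1 point per library and a bar at the mean of 3, in order of mean abundance. The newborn points of SARS (80.2 to 94.3 TPM), NARS, YARS and TARS stand clear above the older ones, whereas those of KARS (149 to 214 TPM) overlap at all ages.

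Another 6 cytosolic enzymes fell at day 7 by less. EPRS had 48.2, 39.1 and 56.3 TPM at day 0, 24.3, 26.5 and 20.8 at day 7, and 18.8, 22.4 and 20.7 at day 15, a change of -0.97 at day 7 against day 0 (limma adjusted p = 0.00764). FARSA, the alpha subunit of the phenylalanine enzyme, had 36.2, 34.2 and 46.4 TPM at day 0, 22.4, 19.2 and 17.9 at day 7, and 16.0, 18.3 and 15.9 at day 15 (-0.93, limma adjusted p = 0.00767). In both, the newborn libraries were clear of the older ones.

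IARS, the isoleucine enzyme, had 27.1, 24.0 and 32.9 TPM at day 0, 15.6, 14.6 and 14.7 at day 7, and 9.19, 11.8 and 11.1 at day 15, and none of the 3 ages overlapped. MARS, the methionine enzyme, had 33.1, 34.6 and 38.7 TPM at day 0, 25.0, 22.3 and 19.7 at day 7, and 15.9, 19.6 and 15.9 at day 15, also with 3 separate ages. Their changes at day 7 were -0.85 and -0.65 (limma adjusted p = 0.0103 and 0.0248).

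DARS, the aspartate enzyme, had 47.2, 49.4 and 59.0 TPM at day 0, 31.1, 38.1 and 28.5 at day 7, and 28.1, 43.8 and 40.7 at day 15. CARS, the cysteine enzyme, had 11.1, 9.99 and 14.4 TPM at day 0, 7.06, 6.12 and 8.20 at day 7, and 5.26, 6.63 and 4.85 at day 15. Both were highest in the newborn libraries without overlap. They changed by -0.66 and -0.65 at day 7 (limma adjusted p = 0.0442 and 0.0386), and of the 17 alternative settings 8 and 9 ended these calls, 5 ended that of MARS and 1 that of IARS. Without day 0 replicate 6, all 4 of these calls were lost (limma adjusted p = 0.171 for DARS, 0.165 for CARS, 0.110 for MARS and 0.0600 for IARS) and 8 of the 12 were left. WARS (-0.56), LARS (-0.36), HARS (-0.29) and RARS (-0.27), for tryptophan, leucine, histidine and arginine, did not pass, with limma adjusted p of 0.0665 to 0.286.

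Between day 15 and day 7 no further change of a member passed the test. The count past the threshold was 0 of 32 (limma), where 0.171% of all genes passed (0.13% lower and 0.0408% higher). On simulated data this comparison called 2.99% of 1.5-fold and 49.3% of 2-fold changes, so changes of such sizes may have been missed. At an unadjusted p under 0.05 there were 1 cytosolic and 1 mitochondrial enzyme lower and 0 higher. Of the 12268 genes tested, 1351 were lower and 214 higher at that unadjusted threshold. The median log2 fold change was -0.21 over the cytosolic and -0.11 over the mitochondrial enzymes, against -0.15 over all genes. The day 15 libraries lay below all day 7 libraries for 5 of 18 cytosolic enzymes (MARS, LARS, IARS, HARS and QARS) and 3 of 14 mitochondrial enzymes (VARS2, LARS2 and PARS2), as for 17.9% of all genes, and above them for 0 members, as for 1.46% of all genes. IARS had 9.19, 11.8 and 11.1 TPM at day 15 and 15.6, 14.6 and 14.7 TPM at day 7, a log2 fold change of -0.46 ± 0.17 with a limma adjusted p of 0.313.

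The first and the second week were compared directly, by subtracting the second step from the first. Of all genes 1.92% passed this contrast, 0.391% with a negative and 1.53% with a positive value. YARS passed, at -1.42 ± 0.33 (limma adjusted p = 0.0483), with steps of -1.57 in the first week and -0.15 in the second. The same contrast was -1.61 for NARS, -1.26 for SARS and -1.32 for TARS and did not pass (limma adjusted p = 0.0553, 0.0553 and 0.0721). With median-of-ratios scaling 5 cytosolic members passed (DARS, NARS, SARS, TARS and YARS), and the call of YARS was lost in 11 of 17 settings.

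Over the whole interval, most cytosolic enzymes were lower. For day 15 against day 0, 14 of 18 fell and 0 rose (limma), where 18.4% of all genes fell and 5.53% rose (23.9% in either direction). At an unadjusted p under 0.05 there were 16 cytosolic enzymes lower and 0 higher, where 3572 of the 12268 genes tested were lower and 1211 higher. The median log2 fold change was -1.07, a difference of -0.88 from the median of all genes, and all 3 day 15 libraries lay below all 3 day 0 libraries for 16 of 18, against 30.5% of all genes. YARS (-1.72, limma adjusted p = 4.5e-04), TARS (-1.55, limma adjusted p = 0.00104), NARS (-1.50), VARS (-1.44), GARS (-1.41) and IARS (-1.30) changed most. The calls of HARS (-0.63), WARS (-0.67) and LARS (-0.60), which passed only in this comparison, were each lost in 5 of 17 settings. LARS had 21.9, 21.4 and 23.8 TPM at day 0, 16.8, 18.5 and 16.3 at day 7, and 12.7, 16.1 and 14.6 at day 15, a descent without overlap at each age. HARS had 12.8, 14.2 and 15.6 TPM at day 0, 13.0, 10.5 and 10.7 at day 7, and 8.95, 10.3 and 7.40 at day 15, where only day 15 stood apart from both other ages. DARS (-0.47, limma adjusted p = 0.103), RARS (-0.47, limma adjusted p = 0.0650), KARS and QARS (0.18, limma adjusted p = 0.463) did not pass. This comparison and that of day 7 share the day 0 libraries.

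WARS, the tryptophan enzyme, is known as an interferon-inducible gene in human cells. Of 15 interferon-stimulated genes tested, 2 rose at day 7 and 12 at day 15, both against day 0, where 7.67% and 5.53% of all genes rose, and the 16 in the table summed to 65.6 to 123 TPM at day 0, 142 to 908 TPM at day 7 and 400.3 to 2737 TPM at day 15. WARS had 21.4, 20.4 and 28.1 TPM at day 0, 15.3, 18.0 and 13.2 at day 7, and 12.3, 16.6 and 13.8 at day 15, where each older library was below each newborn one.

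The changes are also given by membership of the multisynthetase complex. In mammals this large assembly holds DARS, EPRS, IARS, KARS, LARS, MARS, QARS and RARS around the scaffold proteins AIMP1, AIMP2 and EEF1E1, and the other cytosolic enzymes work outside it. This grouping was applied after the values were seen and carries no test. For day 7 against day 0, 4 of the 8 complex members fell (median -0.50, range -0.97 to 0.51) and 8 of the 10 others fell (median -1.18, range -1.57 to -0.29). For day 15 against day 0, the counts were 4 of 8 (median -0.54) and 10 of 10 (median -1.29). Of all genes 8.88% fell at day 7 and 18.4% at day 15. Of the scaffold proteins, AIMP1 and AIMP2 fell, with AIMP1 at 24.9, 20.9 and 25.0 TPM at day 0, 13.1, 15.6 and 12.8 at day 7 and 11.4, 14.3 and 12.6 at day 15 (-0.73 at day 7 against day 0, limma adjusted p = 0.0161), and AIMP2 changing by -0.67 (limma adjusted p = 0.0393). EEF1E1 was not analysed here. AIMP1 and AIMP2 belong to a list of 6 partner and related genes, of which 3 fell at day 7 and 2 at day 15, against day 0. At an unadjusted p under 0.05, 3 of the 6 were lower and 1 was higher at day 7. At that threshold 2267 of the 12268 genes tested were lower and 1884 were higher.

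The mitochondrial synthetases differed among themselves. MARS2, which charges the methionine transfer RNA of the matrix, had 5.97, 5.43 and 6.95 TPM at day 0, 3.83, 3.16 and 2.56 at day 7, and 2.78, 4.01 and 3.30 at day 15. EARS2, the glutamate enzyme, had 8.46, 8.78 and 9.74 TPM at day 0, 5.77, 5.31 and 4.77 at day 7, and 3.99, 5.69 and 4.68 at day 15. These were the 2 mitochondrial enzymes that fell at day 7, and in each the newborn libraries stood above all others. Their log2 fold changes were -0.77 ± 0.19 and -0.67 ± 0.17 (limma adjusted p = 0.0194 and 0.0240). The calls were lost in 3 of 16 and 5 of 17 settings, and 0 mitochondrial enzymes passed when day 0 replicate 4, day 0 replicate 6 or day 7 replicate 6 was left out.

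**Figure D3:**
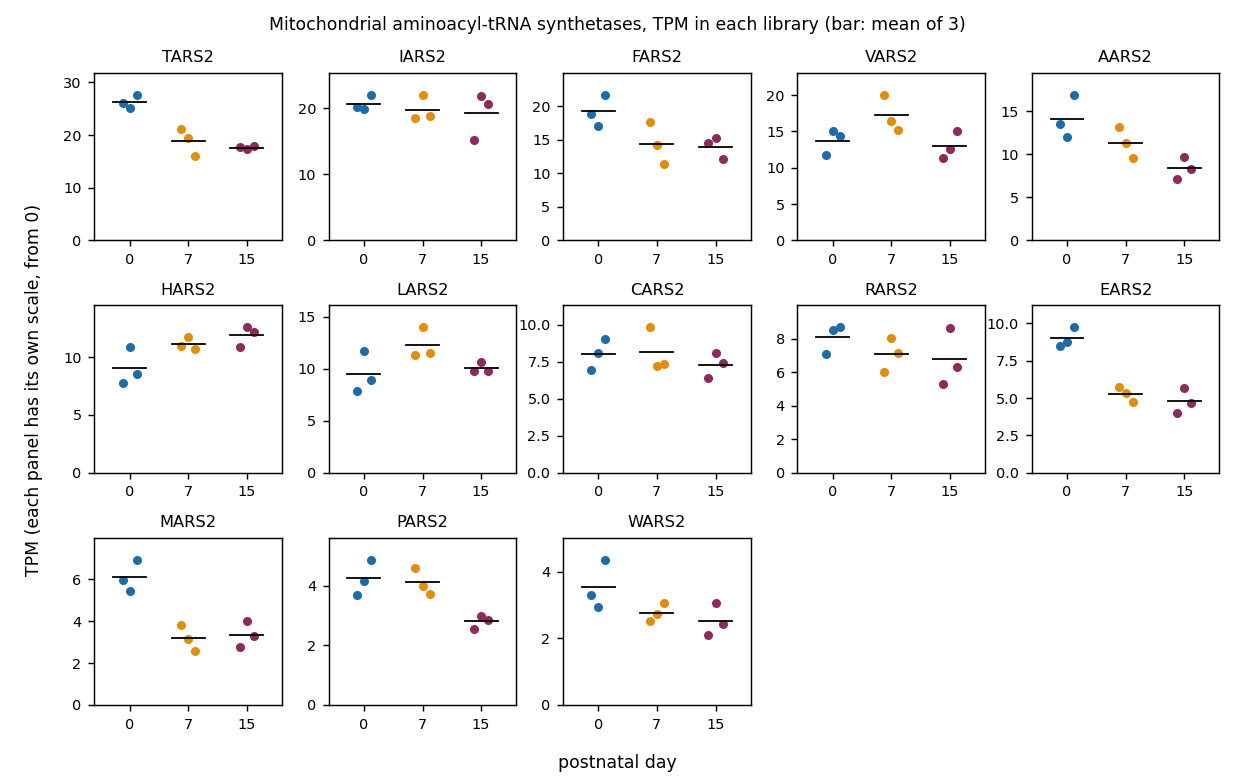
TPM (vertical axis, each panel with its own scale from 0) of 13 mitochondrial synthetases on postnatal days 0, 7 and 15 (horizontal axis), 1 point per library and a bar at the mean of 3, in order of mean abundance. EARS2 and MARS2 are highest at birth, IARS2 keeps means of 20.7, 19.8 and 19.3 TPM, and the HARS2 means are 9.08, 11.1 and 11.9 TPM.

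For day 15 against day 0, 6 of the 14 mitochondrial enzymes were lower and 0 higher at an unadjusted p under 0.05. At that threshold 3572 of the 12268 genes tested were lower and 1211 higher. After adjustment 4 of the 14 enzymes fell (28.6%, where 18.4% of all genes did) and 0 rose. They were EARS2 (-0.80, limma adjusted p = 0.00870), MARS2 (-0.71), the alanine enzyme AARS2 (-0.68) and the threonine enzyme TARS2 (-0.55), the most abundant mitochondrial member. AARS2 had 13.5, 11.98 and 16.9 TPM at day 0, 13.2, 11.3 and 9.61 at day 7, and 7.12, 9.73 and 8.31 at day 15. The day 15 libraries of AARS2 lay below those of day 0. TARS2 had 26.1, 25.2 and 27.6 TPM at day 0, 21.2, 19.4 and 16.0 at day 7, and 17.7, 17.3 and 17.9 at day 15. The median over the 14 was -0.36, a difference of -0.17 from all genes. Without day 0 replicate 6, 0 of the 4 calls were left, and without day 15 replicate 6, only that of EARS2. Without day 0 replicate 4 and without day 15 replicate 1, 2 were left in each.

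The mitochondrial enzymes described next did not pass in any comparison. IARS2, the isoleucine enzyme, had 20.3, 19.9 and 22.0 TPM at day 0, 18.5, 22.0 and 18.8 at day 7, and 15.3, 21.9 and 20.7 at day 15, with overlap at all ages (-0.07 ± 0.18 at day 7 and -0.11 ± 0.18 at day 15 against day 0, limma adjusted p = 0.810 and 0.663). HARS2, the histidine enzyme, had 7.77, 10.9 and 8.58 TPM at day 0, 10.9, 11.7 and 10.7 at day 7, and 10.9, 12.6 and 12.1 at day 15. Its day 15 libraries lay just above its day 0 libraries, which 9.45% of all genes showed, and the log2 fold change of 0.36 ± 0.17 did not pass (limma adjusted p = 0.135), although it did after median-of-ratios scaling (0.58, limma adjusted p = 0.0108). HARS and HARS2 are close copies, and no source states how reads shared by both were divided, so their values are less certain. FARS2, the phenylalanine enzyme and the third in abundance of its class, had 18.9, 17.1 and 21.7 TPM at day 0, 17.6, 14.3 and 11.4 at day 7, and 14.5, 15.2 and 12.1 at day 15. Its day 15 libraries lay below those of day 0, and day 7 overlapped both (-0.40 ± 0.19 at day 7 and -0.44 ± 0.19 at day 15 against day 0, limma adjusted p = 0.157 and 0.112). VARS2, for valine, averaged 13.7 ± 1.80 TPM at day 0, 17.2 ± 2.49 TPM at day 7 and 13.0 ± 1.89 TPM at day 15, with every day 7 library above every other (0.31 at day 7 against day 0, limma adjusted p = 0.253). LARS2 (0.35 at day 7 and 0.09 at day 15 against day 0), CARS2 (0.01 and -0.12), RARS2 (-0.18 and -0.25), WARS2 (-0.26 and -0.36) and PARS2 (-0.04 and -0.46) did not pass in either comparison. The day 15 libraries of PARS2 lay below all its other libraries (limma adjusted p = 0.0632 against day 0). Of all genes 30.5% lay lower in this way against day 0 and 17.9% against day 7.

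The pairing of enzymes by amino acid set the compartments side by side within each library. For 11 amino acids the members include a cytosolic and a mitochondrial enzyme, apart from EPRS, which serves both glutamate and proline. The difference of their log2(TPM + 1) levels, cytosolic minus mitochondrial, is given as a description with no test. This difference was lower at day 7 than at day 0 for 10 of 11 amino acids (median change -0.57), and for 8 of them the 3 libraries of day 7 lay below the 3 of day 0. At day 15 it was lower than at day 0 for 11 of 11 (median change -0.72), without overlap for 9. With EPRS set against EARS2 and against PARS2, 12 of 13 pairs were lower at day 7 and 13 of 13 at day 15. Of these, 9 and 11 did not overlap, and EPRS is counted in both of its pairs. Pairs of other genes were not measured, so the counts of pairs have no background. Among single genes tested, 23.8% were lower without overlap at day 7 and 30.5% at day 15, both against day 0. EPRS minus EARS2 changed by -0.295 at day 7, with overlap, and EPRS minus PARS2 by -0.93, without overlap. The change is unaffected by the total of a library apart from the pseudocount, since both enzymes are divided by the same total.

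The valine pair changed most. VARS minus VARS2 was 1.09, 0.73 and 1.17 at day 0, -0.33, -0.66 and -0.44 at day 7, and -0.20, -0.12 and -0.79 at day 15. The cytosolic enzyme was thus the more abundant in every newborn library and the less abundant in every older library. The isoleucine pair crossed in the same way, with IARS minus IARS2 at 0.40, 0.26 and 0.56 at day 0, -0.23, -0.56 and -0.33 at day 7, and -0.68, -0.84 and -0.84 at day 15. The histidine and cysteine pairs were also above 0 in every newborn library and below 0 in every day 15 library. Their day 7 libraries lay on both sides of 0. For threonine the mitochondrial enzyme was the more abundant at every age, with TARS minus TARS2 averaging -0.35 ± 0.11 at day 0, -1.31 ± 0.13 at day 7 and -1.34 ± 0.35 at day 15 (SD). Methionine was the exception at day 7, where MARS minus MARS2 averaged 2.48 ± 0.06, against 2.36 ± 0.095 at day 0, as both enzymes fell. That change of 0.12 became 0.26, without overlap of the libraries, with a pseudocount of 0.1 TPM, which gave 7 amino acids with a lower and 1 with a higher difference without overlap at day 7. The arginine pair overlapped between all ages.

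**Figure D4:**
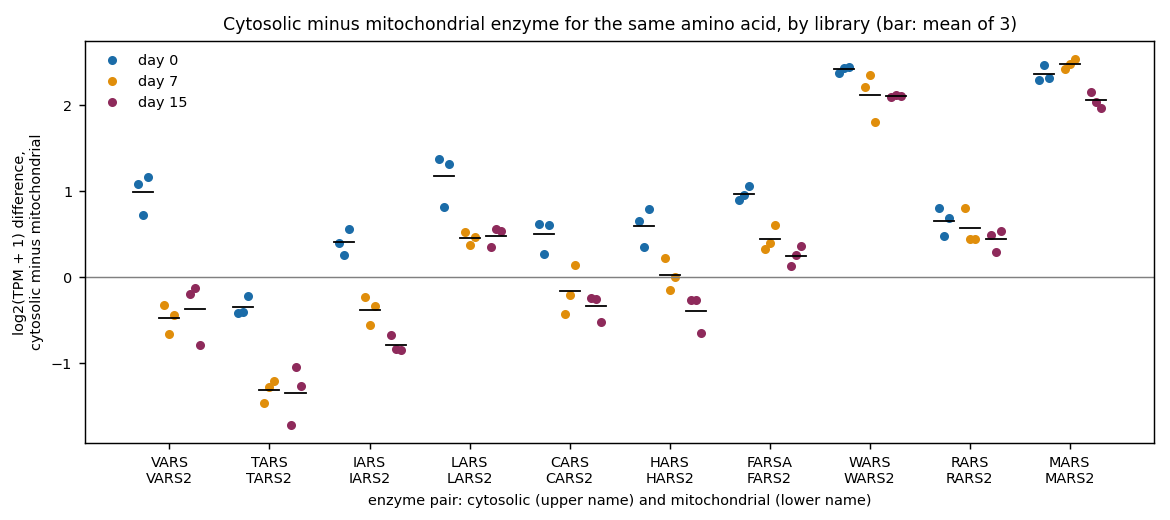
Difference of log2(TPM + 1), cytosolic minus mitochondrial enzyme (vertical axis), for 10 amino acids with both forms among the members (horizontal axis, ordered by the change at day 7), 1 point per library and a bar at the mean of 3 for day 0, day 7 and day 15. The pairs of EPRS with EARS2 and PARS2 are not drawn. Points above 0 mean more cytosolic than mitochondrial transcript. The valine and isoleucine pairs lie below 0 at the later ages and above 0 at day 0, and the methionine pair lies at 2.36 at day 0 and 2.48 at day 7. The histidine and cysteine pairs lie above 0 at day 0, on both sides of 0 at day 7 and below 0 at day 15.

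Summed over the members, cytosolic transcripts made up 753, 668 and 897 TPM at day 0, 502, 543 and 463 at day 7, and 398, 547 and 448 at day 15. The mitochondrial sums were 146, 154 and 167 TPM at day 0, 150, 142 and 126 at day 7, and 112, 136 and 126 at day 15. The ratio of the sums averaged 4.95 ± 0.55 at day 0, 3.61 ± 0.23 at day 7 and 3.71 ± 0.27 at day 15, and without KARS it averaged 3.76 ± 0.37, 2.34 ± 0.06 and 2.35 ± 0.13. The newborn libraries were above the older ones in each of these ratios. Among the newborn libraries, replicate 6 had the highest sums of both sets and the smallest share of TPM in the most abundant row (24.0%).

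**Figure D5:**
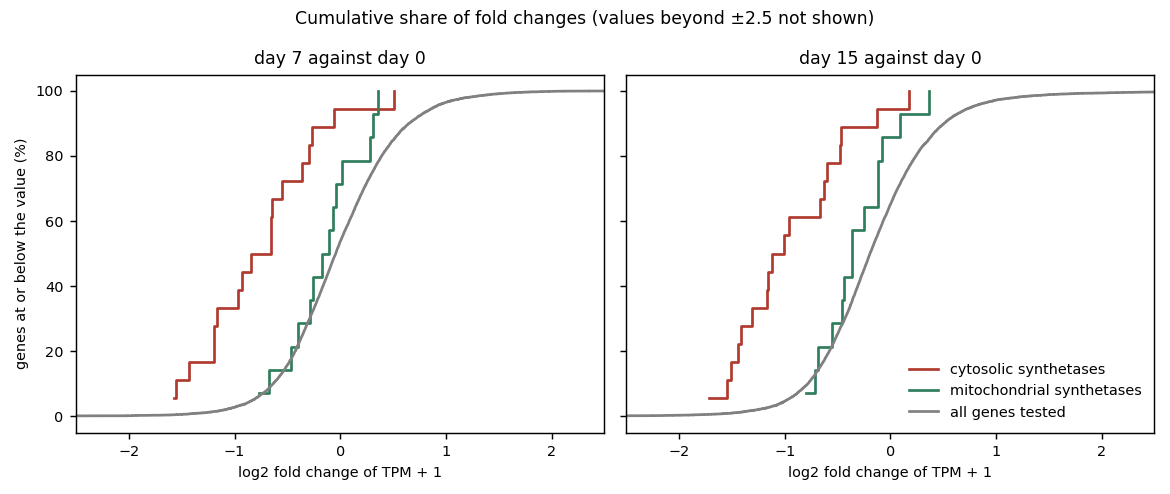
Cumulative share of genes (vertical axis, percent) at or below a log2 fold change of TPM + 1 (horizontal axis) for day 7 against day 0 (left) and day 15 against day 0 (right), for the 18 cytosolic synthetases, the 14 mitochondrial synthetases and all 12268 genes tested. The cytosolic curve lies left of all genes, with medians of -0.75 and -1.07, and the mitochondrial medians are -0.14 and -0.36.

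Enzymes that the table lists only by Ensembl identifier fall outside the definition by name, and 4 of them could be matched to a symbol. AARS1, the cytosolic alanine enzyme (ENSSSCG00000002723), had 110.5, 77.6 and 132 TPM at day 0, 41.5, 37.1 and 30.3 at day 7, and 35.0, 38.2 and 36.7 at day 15. It fell by 1.51 on the log2(TPM + 1) scale at day 7 (limma adjusted p = 0.00291). With it, 13 of 19 cytosolic enzymes fell at day 7 and 15 of 19 at day 15, where 8.88% and 18.4% of all genes fell. The mitochondrial enzymes SARS2, NARS2 and YARS2 had log2 fold changes of -0.02, 0.11 and -0.44 at day 7 and did not pass (limma adjusted p = 0.964, 0.698 and 0.175). FARSB, the beta subunit of the phenylalanine enzyme, was not analysed here.

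Genes that act on transfer RNA before and beside charging were measured too. Of 37 genes of transfer RNA processing, modification and export tested, 8 fell at day 7 and 17 fell and 1 rose at day 15, both against day 0 (medians -0.34 and -0.54), where 8.88% of all genes fell at day 7 and 18.4% fell and 5.53% rose at day 15 (medians -0.04 and -0.19). TRMT61A, the catalytic subunit of the methyltransferase for adenosine in the transfer RNA body, averaged 13.9 ± 3.78 TPM at day 0, 3.30 ± 1.26 TPM at day 7 and 2.40 ± 0.41 TPM at day 15 (-1.81 at day 7 against day 0, limma adjusted p = 0.00247). XPOT, which exports transfer RNA from the nucleus, changed by -0.74 and TPRKB, a subunit of the complex that makes threonylcarbamoyl adenosine, by -1.05 (limma adjusted p = 0.0161 and 0.0119). In the mitochondrial branch, QRSL1, a subunit of the amidotransferase that converts glutamate to glutamine on transfer RNA charged by EARS2, had 25.0, 25.9 and 25.8 TPM at day 0, 18.2, 16.3 and 15.4 at day 7, and 14.4, 17.8 and 17.2 at day 15 (-0.59 at day 7 against day 0, limma adjusted p = 0.0280). The newborn QRSL1 libraries lay above all older ones. Of the 6 genes listed beside mitochondrial charging, 2 fell at day 7, where 8.88% of all genes did. They were QRSL1 and MRPL58, by its symbol a ribosomal protein (limma adjusted p = 0.0498). At day 15 against day 0, 1 of the 6, QRSL1, fell, where 18.4% of all genes did, and MRPL58 did not pass (limma adjusted p = 0.0864).

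Where 8.88% of all genes fell at day 7, 3 of 9 mitochondrial translation factors did (GFM1 -0.72, MTRF1L -0.84 and MTRF1 -0.60), and the most abundant, the elongation factor TUFM, averaged 125.5 ± 10.8 TPM at day 0, 101 ± 14.8 TPM at day 7 and 109 ± 7.27 TPM at day 15. TUFM did not pass (limma adjusted p = 0.194 at day 7 and 0.396 at day 15 against day 0). Of 6 cytosolic initiation and elongation factors tested, 2 fell at day 7 (again beside 8.88% of all genes), both subunits of the initiation factor eIF2 (EIF2S2 with 26.6 TPM at day 7 and 54.3 TPM at day 0 on average, limma adjusted p = 0.00632, and EIF2S1 with a change of -0.79, limma adjusted p = 0.0240). At day 15 against day 0, 2 of the 6 fell and 1 rose, where 18.4% of all genes fell and 5.53% rose. EIF2S2 and EIF2S1 fell (-1.06 and -0.88, limma adjusted p = 0.00335 and 0.011). EEF1A2, the muscle form of the factor that carries charged transfer RNA to the ribosome, rose. It had 1376, 1410 and 1370 TPM at day 15, against 745, 929 and 886 TPM at day 0 (0.70, limma adjusted p = 0.0101). The 13 mitochondrially encoded protein genes, which the mitochondrial synthetases serve, had 0 past the threshold in limma in each comparison (at an unadjusted p under 0.05, 1 higher at day 7 against day 0, 1 lower at day 15 against day 7 and 0 at day 15 against day 0). At that unadjusted threshold 1884 of the 12268 genes tested were higher at day 7 against day 0. Another 1351 were lower at day 15 against day 7, and 3572 were lower and 1211 higher at day 15 against day 0.

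The amino acid response was measured beside the family because its transcription factor ATF4, made when eIF2 is phosphorylated, is known from mouse and human cells to act on many cytosolic synthetase genes. ATF4 had 428, 364 and 488 TPM at day 0, 120, 117 and 89.3 at day 7, and 96.4, 122 and 90.1 at day 15. The newborn libraries lay far above the others, and the log2 fold change was -1.97 at day 7 and -2.04 at day 15 against day 0 (limma adjusted p = 3.58e-04 and 2.2e-04). Of 31 genes of the response tested, with ATF4 among them and CARS, a member of the family, left out, 20 fell at day 7 (median -1.30) and 27 at day 15 (median -1.26), both against day 0. Of all genes 8.88% fell at day 7 (median -0.04) and 18.4% at day 15 (median -0.19). CHAC1, which breaks down glutathione, had 0.108 to 0.170 TPM in the 6 older libraries, against 3.99, 5.89 and 5.39 TPM at day 0. TRIB3, a kinase-like inhibitor in the same response, had 45.6, 32.1 and 57.9 TPM at day 0, 2.79, 1.92 and 1.37 at day 7, and 0.254, 1.85 and 1.03 at day 15. In both genes every newborn library was above every older one. Whether the response had a part in the levels of the synthetases was not tested.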

How the data were processed

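RNA from 9 left ventricle libraries was measured by RNA sequencing, 3 libraries per age, and the authors deposited 1 table of TPM values per gene. The submitters' processing notes name Trimmomatic 0.33, HISAT2 2.0.5 and kallisto 0.43.1; the genome build, the annotation and the order of these steps were not given in the sources used. TPM keeps no read depth, so no counting interval is given.

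Genes with at least 1 TPM in at least 3 libraries (12268 of 22629 rows) were tested on log2(TPM + 1) with limma 3.58.1 in R 4.3.3, with a trended variance, all 9 libraries in 1 fit and Benjamini-Hochberg adjustment over all genes tested, at a threshold of 0.05. Fold changes on this scale understate the change of low genes. The procedure was tested on simulated data with 200 genes changed, far fewer than were called here. The changed genes were drawn from those that averaged at least 5 TPM on the log scale. The shares given next therefore need not hold for these data or for lower enzymes such as MARS2, PARS2 and WARS2. At day 7 and at day 15 against day 0, 8.96% and 7.46% of 1.5-fold changes were called. For 2-fold changes the shares were 55.2% and 58.2%, and for unchanged genes 0.0589% and 0.0337%. At day 15 against day 7 they were 2.99% for 1.5-fold changes, 49.3% for 2-fold changes and 0.0674% for unchanged genes. An enzyme that did not pass may therefore still have changed by such amounts. Alternatives were other pseudocounts, filters and scalings, a block for the replicate number and leaving out each library. Rescaling without the most abundant gene alone was added after seeing the data.

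The family and the other gene lists were chosen with earlier results of these data known. Members past the threshold and the most abundant 3 of each class are described in full, the others by counts and ranges. From each other list, up to 4 genes with the smallest adjusted p and the most abundant gene could be named. QARS and HARS2 were singled out after their values were seen. The values of 1 mitochondrial enzyme are not reported here on their own, in the text or the plots by enzyme, and it is kept in the counts and medians.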

Additional observations from a re-analysis of the deposited data

Results flagged for a closer look

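The change of YARS in the first week differed from its change in the second week. The first step minus the second step was -1.42 on the log2(TPM + 1) scale (SE 0.33, limma adjusted p = 0.0483), with a step of -1.57 for day 7 against day 0 and of -0.15 for day 15 against day 7. All 3 day 7 libraries were below all 3 day 0 libraries, and the day 15 and day 7 libraries overlapped. Both steps use the day 7 libraries. Over the alternative settings the adjusted p ranged from 0.0177 to 0.170, and the call was lost in 11 of 17.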

How the results depend on the processing

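Of the calls on the deposited TPM, 8 of 12 cytosolic calls at day 7 against day 0 (EPRS, FARSA, GARS, NARS, SARS, TARS, VARS and YARS) and 11 of 14 at day 15 against day 0 (these and CARS, IARS and MARS) were kept in all 17 alternative settings, and 0 of 2 and 0 of 4 mitochondrial calls were. Leaving out 1 library at a time gave 8 to 12 cytosolic and 0 to 2 mitochondrial enzymes lower and 0 to 1 cytosolic enzyme higher at day 7 against day 0, 11 to 15 and 0 to 4 lower at day 15 against day 0, 0 to 4 cytosolic enzymes in the contrast of steps, and 9 to 15 cytosolic and 0 to 3 mitochondrial enzymes with any difference over the ages (13 and 3 with all libraries). Over all genes it gave 372 to 2685 calls (2031 with all libraries) at day 7 against day 0, 786 to 3275 (2933) at day 15 against day 0, 0 to 59 (21) at day 15 against day 7, 0 to 717 (236) for the steps and 415 to 3191 (2705) for any difference. The cytosolic minus mitochondrial difference of median log2 fold changes was -0.61 at day 7 against day 0 (-0.74 to -0.53 without 1 library) and -0.71 at day 15 against day 0 (-0.76 to -0.66). At day 15 against day 0 it was -0.88 among genes that average at least 5 TPM. It was -0.65 with a pseudocount of 0.1 TPM and -0.76 with 5 TPM. Under the 3 other scalings, in the order given next, it was -0.65, -0.64 and -0.66. The 3 other scalings were by median of ratios, rescaling without mtDNA-encoded and the 20 most abundant genes, and rescaling without the most abundant gene, and these called 3799, 3654 and 3458 genes at day 7 against day 0. Each added QARS as 1 cytosolic enzyme higher at day 7 and at day 15 against day 0, and HARS2 as 1 mitochondrial enzyme higher at day 15 against day 0, and the second also gave 3 mitochondrial enzymes higher at day 7 (HARS2, LARS2 and VARS2). At day 15 against day 0 the third also called RARS and PARS2 lower, and the first and the second lost HARS and TARS2. Up and down calls at day 7 against day 0 numbered 941 and 1090 on the deposited TPM, 1835 and 1964, 2404 and 1250, and 1805 and 1653 under these scalings, and at day 15 against day 0 678 and 2255, 1889 and 1934, 1848 and 1770, and 1410 and 2393. They called 584, 647 and 497 genes for the steps, with 5, 4 and 4 cytosolic enzymes lower and, in the second and the third, 1 higher. Median-of-ratios scaling called 4069 genes with any difference and 8 at day 15 against day 7, and rescaling without the most abundant gene called 13 at day 15 against day 7 and 5 mitochondrial enzymes with any difference. Without a filter 1296 genes were called at day 7 against day 0, 12 at day 15 against day 7 and 44 for the steps, with a mean of at least 5 TPM 1 at day 15 against day 7, 89 for the steps and 1 mitochondrial enzyme lower at day 7, and with a pseudocount of 0.1 TPM 5 and 141 genes. YARS was the cytosolic enzyme called for the steps. The number was 2 with a pseudocount of 5 TPM, and 0 with a pseudocount of 0.1 TPM, without a filter and with a mean of at least 5 TPM. KARS changed sign to 0.11 and 0.017 at day 7 under the second and the third scaling (-0.21 to 0.044 without 1 library, the highest without day 0 replicate 6), and at day 15 against day 0 to 0.12, 0.13 and 0.031 under the 3 scalings. IARS2 changed sign to 0.10 and 0.008 at day 7, and at day 15 against day 0 to 0.115, 0.13 and 0.034, and without 1 library ranged from -0.21 to 0.037, the highest without day 15 replicate 1. The labels do not state whether replicate numbers pair the samples. Deviations of same-numbered libraries correlated at 0.003 for number 5, 0.032, 0.099 and 0.17 for number 6 and -0.213 for number 2. Differently numbered libraries were not set beside them, so these values do not settle whether the numbers pair samples. With the replicate block 857 genes were called at day 7 against day 0, 126 at day 15 against day 7, 919 at day 15 against day 0, 28 for the steps and 807 for any difference, with 1 mitochondrial enzyme lower at day 7 and 0 at day 15 against day 0, 0 cytosolic enzymes for the steps, 8 cytosolic and 0 mitochondrial enzymes with any difference, and day 15 values of 0.012 for KARS and 0.063 for IARS2. The cause of these shifts was not tested. With 3 libraries per age and no read depth, the size of small changes is not resolved.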
